A study of Mus musculus with 9 samples.

Results

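The 10 genes described here carry tumour necrosis factor (TNF) and interleukin 6 (IL-6) signals: Tnf, Tnfrsf1a, Tnfrsf1b, Tnfaip3, Nfkbia, Il6, Il6ra, Il6st, Osm and Osmr. They were chosen by name, as the ligands, receptors and inhibitors of both pathways, with earlier results of these data known. Each was represented by its brightest probe among the 19694 genes measured. The samples were lungs of male C57BL/6 mice, 10 weeks old, on 9 one-colour microarrays labelled with Cy5. Of these, 4 were titled control and 5 irradiated, and the irradiated lungs had received a single radiation dose to the left lung under zoletil and rompun anaesthesia. The labels give neither the dose, nor the lung region, nor the time after irradiation of any array, so the spread among the irradiated arrays includes any such difference. RNA of repeated experiments was pooled before labelling, so each array averages several animals, and nothing in the labels says that the arrays are separate animals or cultures. The p-values therefore measure only the spread between these arrays.

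TNF is released mainly by macrophages and binds the receptors encoded by Tnfrsf1a and Tnfrsf1b, which recruit adaptor proteins that release the transcription factor NF-kB. Nfkbia encodes IkBα, which holds NF-kB in the cytoplasm, and Tnfaip3 encodes A20, which edits ubiquitin chains on the receptor complex. Both are switched on by NF-kB and close a negative feedback loop. IL-6 binds its receptor, encoded by Il6ra, and the pair joins gp130, encoded by Il6st, which signals through Janus kinases to STAT3. Oncostatin M, encoded by Osm, is a relative of IL-6 that uses gp130 together with the receptor encoded by Osmr, and STAT3 drives the genes of the acute phase response. In the lung these cytokines accompany inflammation and repair after injury.

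All 10 genes were read well above background on all 9 arrays, and no spot was saturated. Osmr was the one gene of the 10 that changed at an adjusted p under 0.05: it rose 1.54-fold, and every irradiated array was above every control array. Il6 had the largest difference, 5.77-fold, and did not pass the test: irradiated array 1 was at the control level, and the other 4 irradiated arrays were above every control. Without that array, which held the lowest irradiated Il6 value, the Il6 difference was 8.93-fold and passed. Leaving out that array raises the difference by construction, and on leaving out any other single array Il6 did not pass. Over all 9 arrays Il6 passed once a random block for pairs of arrays with like scans was added. The receptor Il6ra was lower on every irradiated array than on every control array, but did not pass the test. The remaining 7 genes overlapped between the groups and did not pass.

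Promoter sequences of 4 genes are shown because NF-kB acts through such stretches: Il6, whose values differ most, the feedback inhibitors Tnfaip3 and Nfkbia, and Osmr, the gene that passed. Each line gives the 250 bases before a transcription start, from RefSeq (GRCm38.p6), written 5′ to 3′ on the strand of the gene. The Il6 window is chr5:30012864-30013113 on the plus strand. The Tnfaip3 window is chr10:19015411-19015660, the Nfkbia window is chr12:55492648-55492897 and the Osmr window is chr15:6874314-6874563, all on the minus strand. Capitals mark matches to the NF-kB motif (GGG, any 3 bases, then TTCC) and to the AP-1 motif TGANTCA, both searched on both strands.
Il6: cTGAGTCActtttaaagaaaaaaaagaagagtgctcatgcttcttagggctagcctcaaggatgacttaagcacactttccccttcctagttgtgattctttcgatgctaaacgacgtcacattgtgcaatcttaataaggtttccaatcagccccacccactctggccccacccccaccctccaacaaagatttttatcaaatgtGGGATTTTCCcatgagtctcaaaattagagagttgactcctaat
Tnfaip3: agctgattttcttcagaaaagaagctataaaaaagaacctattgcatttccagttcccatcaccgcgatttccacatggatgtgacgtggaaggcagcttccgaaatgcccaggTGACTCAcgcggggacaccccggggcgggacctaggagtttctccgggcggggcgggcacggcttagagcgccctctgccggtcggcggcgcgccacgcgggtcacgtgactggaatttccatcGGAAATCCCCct
Nfkbia: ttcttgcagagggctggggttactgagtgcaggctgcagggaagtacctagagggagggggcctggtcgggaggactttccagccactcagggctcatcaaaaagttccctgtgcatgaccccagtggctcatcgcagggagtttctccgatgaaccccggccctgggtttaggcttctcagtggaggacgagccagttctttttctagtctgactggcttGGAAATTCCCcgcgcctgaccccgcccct
Osmr: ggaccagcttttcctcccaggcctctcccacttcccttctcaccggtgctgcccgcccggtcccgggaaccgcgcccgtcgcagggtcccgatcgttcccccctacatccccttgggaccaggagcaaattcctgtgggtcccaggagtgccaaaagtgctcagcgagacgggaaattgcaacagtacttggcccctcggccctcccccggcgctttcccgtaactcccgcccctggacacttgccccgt
The Il6 window held the NF-kB match GGGATTTTCC at 44 to 35 bases before the start, and an AP-1 match at 249 to 243 bases. The Tnfaip3 window held the NF-kB match GGAAATCCCC at 12 to 3 bases before the start and an AP-1 match at 136 to 130 bases. A second start of Tnfaip3, with the window chr10:19011964-19012213, held the NF-kB match GGGTTATTCC at 90 to 81 bases. The Nfkbia window held GGAAATTCCC at 29 to 20 bases before the start. No match of either motif, nor of the STAT motif TTCNNNGAA, was found in the Osmr window. Of 32851 promoter windows of 250 bases, 4.65% held the NF-kB motif, 6.75% the AP-1 motif and 7.02% the STAT motif. A match describes letters in a window and was not tested as a binding site. The windows of Tnf, Il6ra and Il6st held no match, and those of Tnfrsf1a and Tnfrsf1b held 1 STAT match each. Of the 10 genes 9 were matched in the promoter table, all but Osm.

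Of the 3 ligands, Il6 differed most. The normalized log2 intensity of Il6 was 7.24, 6.66, 6.50 and 7.62 on control arrays 1 to 4, and 7.01, 9.48, 10.44, 10.43 and 10.30 on irradiated arrays 1 to 5. Irradiated array 1 lay within the control range, and the other 4 lay above all controls. The SD was 0.52 over the control arrays (n = 4) and 1.47 over the irradiated arrays (n = 5). The difference was 2.53 ± 0.66 (SE) on the log2 scale, with an adjusted p of 0.178 from limma and a 95% interval of 1.06 to 4.00. Without irradiated array 1 it was 3.16 ± 0.30, with an adjusted p of 0.00720 and an interval of 2.47 to 3.85. That array held the lowest irradiated value, so leaving it out raises the difference by construction. On leaving out any other single array Il6 did not pass, with adjusted p of 0.280 to 0.379. Pairs of a control and an irradiated array were alike in the top edge of the array image and in the local background level, though not in the left edge, and are called scan pairs here. Irradiated array 1 had no such partner. Within the 4 such pairs, the Il6 difference was 2.24, 3.78, 3.94 and 2.68. A random block for the pairs, over all 9 arrays, gave 2.91 with an adjusted p of 0.00732, and a fixed block, which sets aside irradiated array 1, gave 3.16 with an adjusted p of 0.0273. Before normalization, the median Il6 signal was 168 to 234 units on the control arrays, 152 on irradiated array 1 and 674 to 2372 on the others, over a local background of 24 to 48 units. The signal therefore separated the same arrays before and after normalization.

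Tnf, the founding cytokine of its family, read 8.04, 7.94, 7.41 and 7.29 on the control arrays and 6.87, 8.77, 8.14, 8.08 and 8.37 on the irradiated arrays. Irradiated array 1 was below every control, and the other 4 were above every control. The difference was 0.38 ± 0.35 over all arrays, with an adjusted p of 0.824 and an interval of -0.41 to 1.16. Without irradiated array 1 it was 0.67 ± 0.23, with an adjusted p of 0.290. The probe of Tnf was printed 10 times on each array, and the SD among these spots was 0.034 to 0.087 on the log2 scale.

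Osm, the gene of oncostatin M, read 6.72, 6.27, 6.19 and 6.23 on the control arrays and 6.25, 6.65, 6.85, 6.67 and 6.46 on the irradiated arrays. The groups overlapped, since control array 1 was above irradiated arrays 1, 2, 4 and 5. The difference was 0.22 ± 0.19, with an adjusted p of 0.809 and an interval of -0.21 to 0.65, and turned to -0.018 under scaling to the 75th percentile. Osm was dim, with a median signal of 93 to 207 units on the 9 arrays.

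Among the receptors, Osmr, the receptor subunit for oncostatin M, had 13.08, 13.07, 12.91 and 12.94 on the control arrays and 13.40, 13.62, 13.51, 13.84 and 13.74 on the irradiated arrays. The lowest irradiated value, that of array 1, was above the highest control value. The SD was 0.09 over the control arrays (n = 4) and 0.17 over the irradiated arrays (n = 5), and the difference of 0.62 ± 0.10 had an adjusted p of 0.0433 and an interval of 0.40 to 0.84. It ranked 61 of 19694 genes by p. Within the scan pairs the difference was 0.54, 0.43, 0.93 and 0.80. The call was lost on leaving out any one array other than irradiated array 1, with adjusted p of 0.0798 to 0.150 and differences of 0.57 to 0.65, and without irradiated array 1 the adjusted p was 0.0184. It was also lost in the authors' table, at 0.56 with an adjusted p of 0.204, and with no intensity trend in the variance, with an adjusted p of 0.0999.

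Il6ra, the receptor subunit that binds IL-6, read 14.46, 14.76, 14.37 and 14.46 on the control arrays and 13.97, 14.26, 14.07, 14.22 and 14.31 on the irradiated arrays. The highest irradiated value, that of array 5, was below the lowest control value. The difference was -0.35 ± 0.10, with an unadjusted p of 0.00737, an adjusted p of 0.246 and an interval of -0.58 to -0.12. It was negative in all 4 scan pairs, at -0.21, -0.69, -0.15 and -0.15. Il6st, the shared subunit gp130, read 13.62, 13.44, 13.72 and 13.96 on the control arrays and 13.52, 13.38, 13.35, 13.63 and 13.88 on the irradiated arrays. The groups overlapped, and the difference was -0.13 ± 0.13, with an adjusted p of 0.848 and an interval of -0.43 to 0.17.

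Neither TNF receptor passed. Tnfrsf1a, the receptor found on most cell types, read 14.48, 14.24, 14.70 and 14.29 on the control arrays and 14.37, 14.49, 14.59, 14.75 and 14.53 on the irradiated arrays. Its difference was 0.12 ± 0.11, with an adjusted p of 0.830 and an interval of -0.14 to 0.37, and the dimmer second probe of the gene gave 0.20 ± 0.12, with an adjusted p of 0.670. Tnfrsf1b, the receptor richest on immune and endothelial cells, read 10.17, 10.48, 9.66 and 10.13 on the control arrays and 10.46, 10.35, 10.66, 10.21 and 10.44 on the irradiated arrays. Its groups overlapped, since control array 2 was above irradiated arrays 1, 2, 4 and 5, and the difference was 0.32 ± 0.16, with an adjusted p of 0.588 and an interval of -0.050 to 0.68.

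Of the inhibitors, Tnfaip3 read 11.89, 11.93, 11.80 and 11.59 on the control arrays and 11.85, 11.98, 12.25, 12.26 and 12.14 on the irradiated arrays. Irradiated array 1 lay within the control range, and the other 4 lay above all controls. The difference was 0.30 ± 0.11, with an unadjusted p of 0.0263, an adjusted p of 0.392 and an interval of 0.043 to 0.55. Among the alternatives tried it passed with one, a random block for the scan pairs, at 0.33 with an adjusted p of 0.0399. Nfkbia read 15.73, 16.15, 15.46 and 15.26 on the control arrays and 16.03, 15.44, 16.04, 15.45 and 15.62 on the irradiated arrays. Its groups overlapped almost fully, with a difference of 0.066 ± 0.20, an adjusted p of 0.972 and an interval of -0.38 to 0.51.

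**Figure D1:**
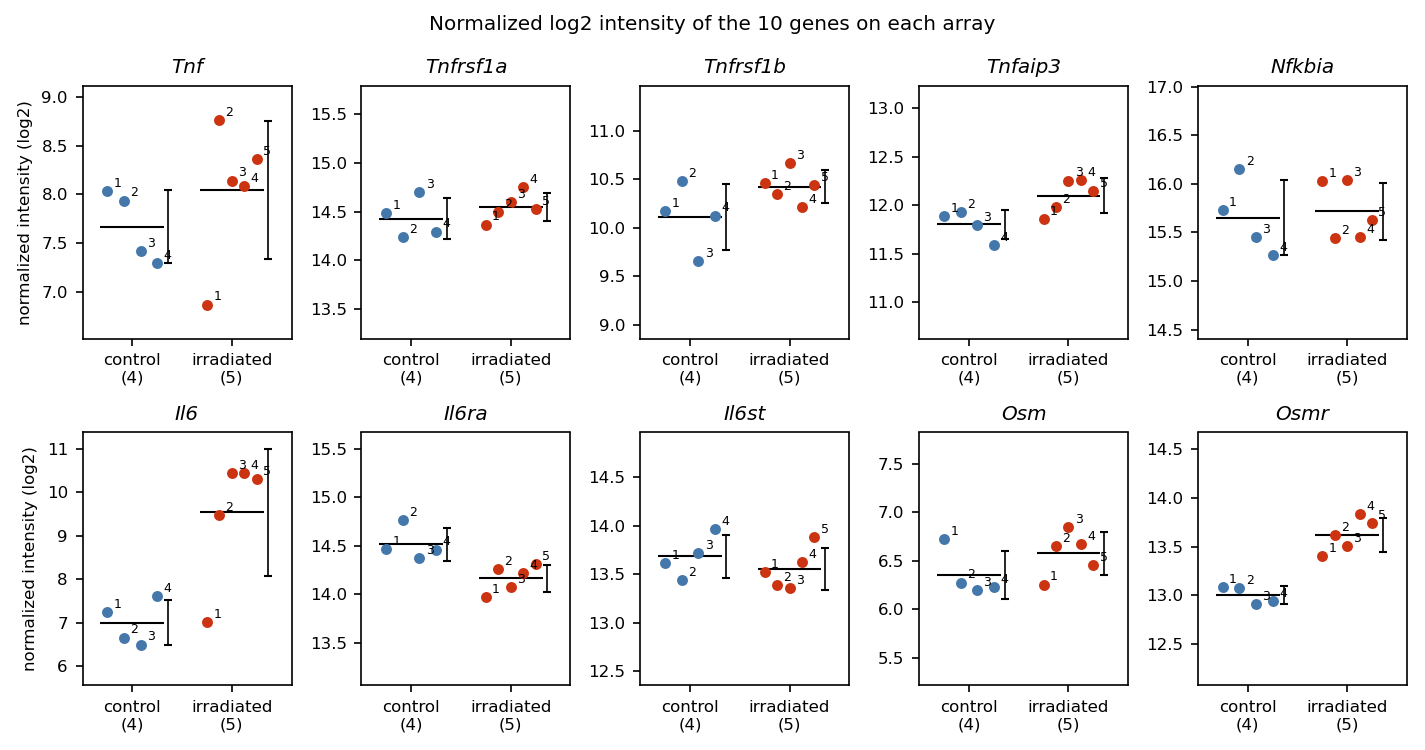
Normalized log2 intensity (vertical axis, each panel with its own range) of the 10 genes on 4 control (blue) and 5 irradiated (red) arrays, with array numbers, group means (lines) and SD (bars). Il6 on irradiated array 1, at 7.01, sits among the controls, while all 5 irradiated values of Osmr lie above the 4 control values and all 5 of Il6ra below.

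Over the 10 genes, 1 passed the test, against 0.416% of all genes (82 of 19694), and it was higher, as were 0.264% of all genes. At an unadjusted p under 0.05, 4 of the 10 genes passed, against 12.3% of all genes. Of these, Osmr, Il6 and Tnfaip3 were higher, beside 7.37% of all genes, and Il6ra was lower, beside 4.98%. Groups that did not overlap were found for 2 of the 10 genes, against 5.14% of all genes: Osmr was above the controls throughout, as were 3.39% of all genes, and Il6ra below, as were 1.76%. The median difference of the 10 genes was 0.26, beside 0.01 over all genes, and 8 of the 10 differences were above 0, beside 51.9% of all genes. Without irradiated array 1, Il6 and Osmr passed, 2 of 10 against 1.65% of all genes. With the scan pairs as a block, these 2 genes passed, against 3.84% of all genes (2.27% higher), but this fit also sets aside irradiated array 1, which has no partner, and its differences equal those without that array. A random block, which keeps all 9 arrays, added Tnfaip3, 3 of 10 against 9.44% (5.64% higher).

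**Figure D2:**
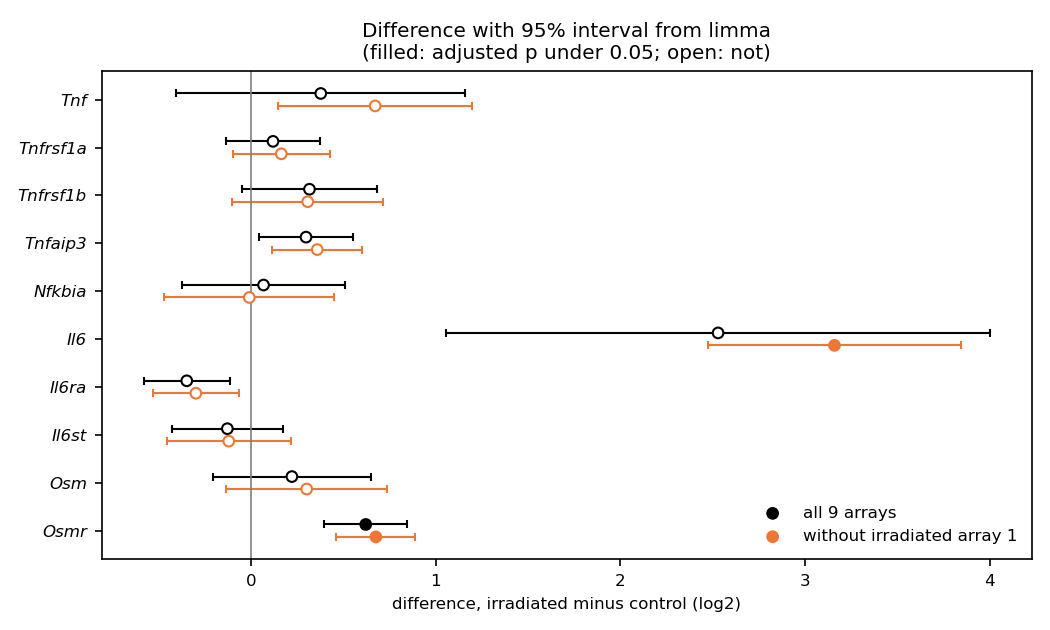
Difference between irradiated and control arrays (horizontal axis, log2) for each of the 10 genes, with 95% intervals, over all 9 arrays (black) and without irradiated array 1 (orange). Filled points had an adjusted p under 0.05: Osmr in both, at 0.62 and 0.67, and Il6 without irradiated array 1, at 3.16.

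Among the 5 genes whose pattern over the 9 arrays lay closest to that of Osmr were Gm4907, Cstb, Lox and Tnfrsf11b. The measure was the root mean square difference between log2 values taken relative to the control mean, over 15231 genes read well above background on every array. It was 0.0803 for Gm4907, 0.0967 for Cstb, an inhibitor of cathepsins, 0.117 for Lox, the enzyme that crosslinks collagen and elastin, and 0.124 for Tnfrsf11b, the decoy receptor osteoprotegerin. The same measure for Osmr against a flat line at the control mean was 0.479.

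The other genes of both pathways were described as 7 lists with 118 measured genes in all. Tnfrsf10b, a death receptor for the TNF relative TRAIL and a target of p53, was the only one to pass in the fit of all 9 arrays without a block, which is meant wherever a list is counted over all arrays. Saa2 passed too with array weights and with the filter on probes well above background, and 23 of the 118 passed with a random block for the scan pairs, against 9.44% of all genes. Tnfrsf10b read 10.32, 10.61, 10.83 and 10.43 on the control arrays and 11.15, 11.46, 11.48, 11.60 and 11.21 on the irradiated arrays, with no overlap, a difference of 0.83 ± 0.14 and an adjusted p of 0.0433. Its call, like that of Osmr, was lost on leaving out any one array other than irradiated array 1, and also with normexp background correction, in the authors' table and with no intensity trend, where 0 of the 118 genes passed. Without irradiated array 1, 13 of the 118 genes passed, all of them higher in irradiated lung, against 1.08% of all genes.

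The signal relays from the receptors were counted by list. Of 23 genes of the TNF receptor complex none passed and 1 had an unadjusted p under 0.05, as had 12.3% of all genes, and the median difference was 0.04, beside 0.01 over all genes. The IKK and JAK-STAT counts are to be read against the same shares. The brightest were Timp3, an inhibitor of the enzyme that sheds TNF, at 0.35 ± 0.19, Rbck1 at -0.15 ± 0.10 and Sppl2b at -0.05 ± 0.10. Of 13 IKK and NF-kB genes none passed and 1 had an unadjusted p under 0.05, with a median of 0.12. Rela, the p65 subunit of NF-kB, differed by 0.12 ± 0.07 and Chuk, a kinase that marks IkBα for destruction, by 0.03 ± 0.11. Bcl3, a nuclear partner of NF-kB, differed by 0.68 ± 0.27 over all arrays and rose by 0.94 ± 0.13 without irradiated array 1, with an adjusted p of 0.0165. Nfkbie passed with the scan pairs as a fixed block, at 0.53 with an adjusted p of 0.0346, and Relb with the random block, at 0.43 with an adjusted p of 0.0489. Of 18 JAK-STAT genes none passed and 1 had an unadjusted p under 0.05, with a median of 0.02. Stat3 differed by 0.20 ± 0.14, Jak1 by -0.03 ± 0.12 and the phosphatase gene Ptpn11 by 0.10 ± 0.08. Socs3, the feedback inhibitor that STAT3 induces, differed by 1.29 ± 0.45 and rose by 1.66 ± 0.30 without irradiated array 1, with an adjusted p of 0.0365. With the scan pairs as a fixed block Socs3 did not pass (adjusted p 0.0674), and with the random block it did (adjusted p 0.0266).

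Among 14 IL-6 family ligands and receptors, none passed over all arrays, and the median was 0.04. Lifr, the receptor of leukaemia inhibitory factor, lay lower on every irradiated array, at -0.52 ± 0.13 with an adjusted p of 0.159, and passed with the scan pairs as a block (adjusted p 0.0407) and as a random block (adjusted p 0.00663). Il11ra1 differed by 0.04 ± 0.17. The 16 lymphotoxin and TNF family genes had a median of 0.16. Of these, 3 had an unadjusted p under 0.05, all higher, against 7.37% of all genes. Of these, Tnfrsf10b is described above, Tnfrsf11b lay higher on every irradiated array, at 0.56 ± 0.12 with an adjusted p of 0.116, and Tnfsf13b, the B-cell survival factor BAFF, differed by 0.46 ± 0.13 with an adjusted p of 0.207. Both passed with the random block, with adjusted p of 0.00663 and 0.00955, and Tnfsf13b with the fixed block too. Among the brightest, Ltb differed by 0.03 ± 0.19, Ltbr by 0.18 ± 0.11 and Fas by 0.20 ± 0.10.

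The response genes differed most. Of 16 NF-kB response genes none passed over all arrays, 7 had an unadjusted p under 0.05, all higher, against 7.37% of all genes, and the median was 0.28. With the random block Icam1, Vcam1, Cxcl1, Ccl2 and Ptgs2 passed, 5 of 16 and all higher, against 5.64% of all genes. The chemokine genes Cxcl1 and Ccl2, which attract neutrophils and monocytes, differed by 2.77 ± 0.64 and 2.05 ± 0.57, and passed without irradiated array 1 at 3.35 ± 0.35 and 2.53 ± 0.39. Among the brightest, Vcam1, an endothelial adhesion molecule, differed by 0.43 ± 0.09, Irf1 by 0.12 ± 0.12 and Sod2, the mitochondrial superoxide dismutase, by 0.11 ± 0.10.

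Of 18 STAT3 and acute phase genes none passed over all arrays, 10 had an unadjusted p under 0.05, all higher, against 7.37% of all genes, and 17 differences were above 0, beside 51.9% of all genes, with a median of 0.69. With a random block for the scan pairs, over all 9 arrays, 10 of the 18 passed, all higher, against 5.64% of all genes, and as a fixed block 9 passed, against 2.27%. On irradiated array 1 the mean of this list relative to the controls was 0.25, and on the other irradiated arrays it was 1.31 to 1.69. Without that array 7 of the 18 passed, against 1.08% of all genes: Saa1, Saa2, Saa3, Lcn2, Fgg, Orm1 and Timp1. Lcn2, which withholds iron from bacteria, differed by 1.74 ± 0.39 over all arrays and rose by 1.99 ± 0.33 without irradiated array 1. Timp1, an inhibitor of matrix metalloproteinases, differed by 1.66 ± 0.39 and rose by 1.94 ± 0.32. Saa3, a serum amyloid A gene, differed by 3.22 ± 0.80 and rose by 3.84 ± 0.59. Saa2 was not well above background on any control array and was at least 17.2-fold higher on the irradiated arrays, the bound being set against the lowest signal still well above background on each control array, with an adjusted p of 0.0540. Saa1 and Saa2 are near-identical copies whose probes may share signal. Hp, the brightest of the list, differed by -0.16 ± 0.16, and Cebpd by 0.64 ± 0.14 with an adjusted p of 0.102, or 0.0126 with the random block.

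**Figure D3:**
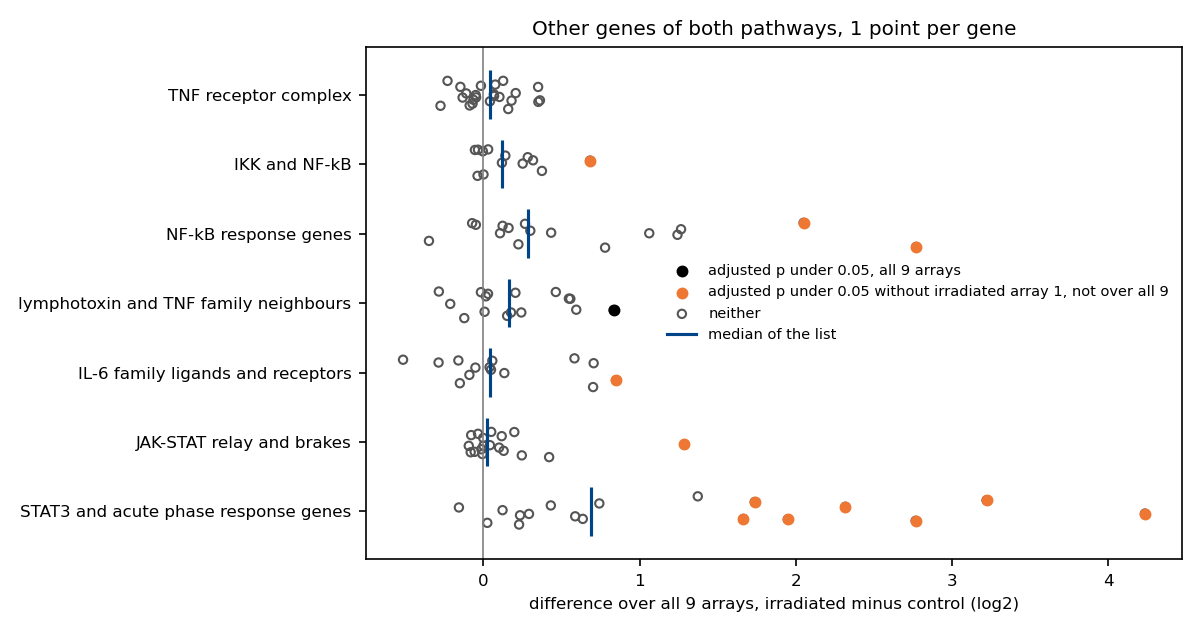
Difference between irradiated and control arrays over all 9 arrays (horizontal axis, log2) for the 118 other genes, 1 point a gene in 7 lists, with the median of each list as a blue line. Tnfrsf10b (black) passed over all arrays, and 12 further genes (orange) passed without irradiated array 1 and not over all arrays, of which 7 belong to the STAT3 and acute phase list with its median of 0.69.

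**Figure D4:**
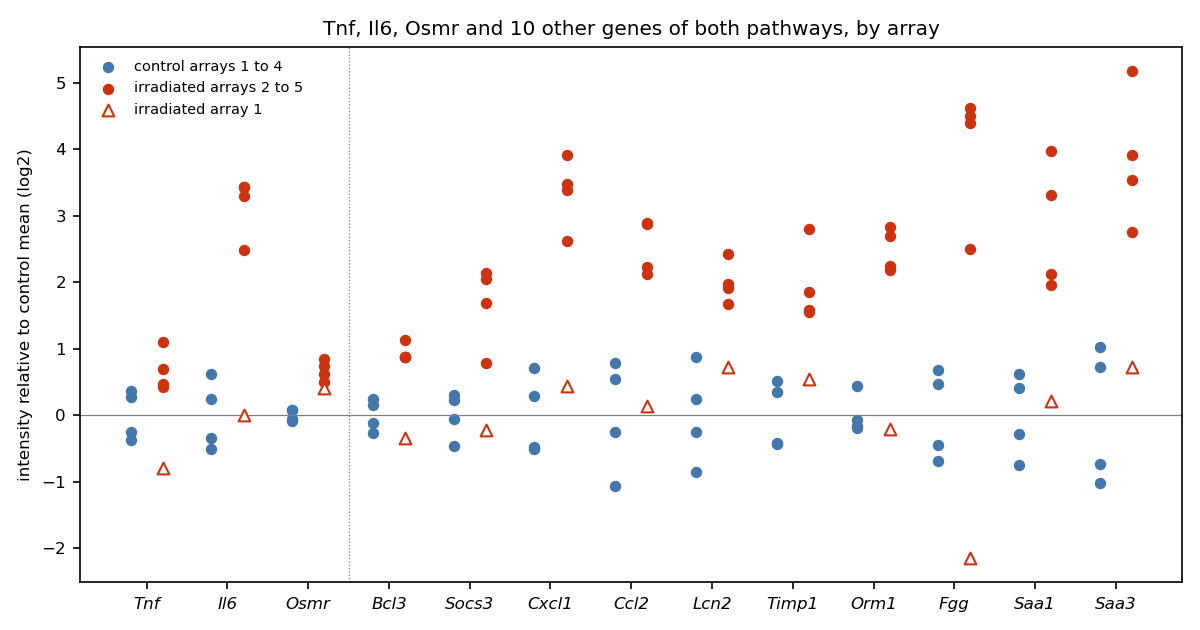
Log2 intensity relative to the control mean (vertical axis) for Tnf, Il6, Osmr and 10 other pathway genes, chosen after their values were seen from those that passed without irradiated array 1. The triangle of irradiated array 1 falls among or below the controls for Tnf and Il6, while Osmr on that array is above them.

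The tissue label was checked with marker genes. The alveolar genes Sftpc and Sftpb and the airway gene Scgb1a1 were bright and well above background on every array. They lie at the top of the intensity range, where quantile normalization sets the values, so no difference between the groups is read from them. None of the markers of macrophages (9 of 10 measured), neutrophils (9 of 10), T cells (8 of 8), B cells (6 of 6), fibroblasts (7 of 7) or endothelium (6 of 6) passed over all arrays. Of the 9 macrophage markers 6 had differences above 0, and Marco, at -0.63, and Siglecf, at -0.47, markers of alveolar macrophages, were below 0, as was Itgam. With the random block 5 of the 9 macrophage markers passed, Itgam as lower and 4 as higher, against 9.44% of all genes (5.64% higher). So did 2 neutrophil markers, and 1 each of B cells, fibroblasts, endothelium and airway. A single call in lists this short is not read as a result. Without irradiated array 1 the macrophage markers Adgre1, at 0.86 ± 0.11 with an adjusted p of 0.0164, and Ms4a7, at 1.55 ± 0.25 with an adjusted p of 0.0283, passed as higher. The airway marker Cyp2f2, at -0.64 ± 0.11 with an adjusted p of 0.0306, passed as lower. In that fit 1.65% of all genes passed, and 1.08% passed as higher. Of the 9 neutrophil markers 8 had differences below 0, with Camp at -1.08 ± 0.43. The summed linear intensity of the macrophage markers ranged over 150713 to 216280 units in the controls and 169851 to 207572 after irradiation, and that of the neutrophil markers over 263243 to 444766 and 207319 to 340767. The macrophage markers Adgre1, at 0.72, and Mrc1, at 0.60, were higher on every irradiated array than on any control. That is 2 of the 9, against 3.39% of all genes. The 2 brightest were Lyz2 at 0.30 ± 0.33 and Itgam at -0.51 ± 0.17. The brightest pairs of the other lists were Csf3r and S100a9 for neutrophils, Cd4 and Lck for T cells, Cd79b and Ms4a1 for B cells, Col1a2 and Dcn for fibroblasts, Egfl7 and Cldn5 for endothelium, Scgb1a1 and Cyp2f2 for the airway, Actc1 and Myh6 for heart muscle and Acta1 and Tnnt3 for skeletal muscle, and none of them passed in the fit of all arrays without a block. The heart muscle markers, which occur in the wall of mouse pulmonary veins, had a mean relative to the controls of -6.17 log2 units on irradiated array 1 and of -0.49 to 0.38 on the other irradiated arrays. Irradiated array 1 was also the lowest of the irradiated arrays for Il6 and Tnf, and a link between these readings was not tested. Control array 3 stood apart in the skeletal muscle markers, with a mean relative to the control mean of 4.78, while the other 8 arrays had -1.07 or less. The part of these cells in the differences was not tested, and in bulk lung fewer cells of a type and less RNA per cell cannot be told apart.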

How the data were processed

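Total RNA of mouse lung was hybridized to one-colour Agilent arrays. The authors deposited intensity values from the Feature Extraction software, not normalized between arrays, and a normalized table of intensity values, used here only as an alternative. From the processed signal, without control and outlier spots, 39303 of 39429 probes were retained because their signal exceeded the local background 1.4-fold on 4 or more of the 9 arrays, and log2 values were quantile normalized. A RefSeq gene table gave symbols for 26049 probes by accession, and the brightest probe stood for each gene. Between 72.8% and 89.1% of spots per array were well above background. The number of arrays limits the precision.

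Groups were compared with limma (version 3.58.1, R 4.3.3) with an intensity trend, no covariates and p-values adjusted by Benjamini-Hochberg across every retained probe, with 0.05 as the threshold. The method was tested on simulated data. Scan pairs were defined from the top edge of the array image and the median local background, since the left edges differ. The genes named were all 10 members, pathway genes past the threshold, the 3 brightest of each list, the 5 genes nearest to the member with the smallest p, and the 2 brightest markers. The genes that passed without irradiated array 1 were named after their values were seen. Some genes that these rules select are not reported here. The members and lists were chosen with earlier results of these data known. Alternatives were another scaling, background correction, filters, the authors' table, leaving out arrays, blocks, no trend, array weights, a stricter threshold and other probes of a gene.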

Additional observations from a re-analysis of the deposited data

Results flagged for a closer look

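Of the 20 groups of values (10 genes, 2 groups), 2 had 1 array far from the rest, where chance gives about 1 in 20. Il6 on irradiated array 1 was 7.01, while the other 4 irradiated arrays read 9.48 to 10.44, a gap of 0.720 of the whole range. Osm on control array 1 was 6.72, while the other 3 control arrays read 6.19 to 6.27, a gap of 0.847 of the whole range.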

How the results depend on the processing

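The number of probes called, 131 with all settings as described, was 44 in the authors' table, 200 with the filter on probes well above background, 44 with no intensity trend, 5 at a threshold of 0.01, 1104 with the scan pairs as a block (which also sets aside the unpaired irradiated array 1) and 2895 as a random block. For the 10 genes the count, 1, became 0 in the authors' table, with no trend and at 0.01, 2 with the scan pairs as a block and 3 as a random block. For the other pathway genes the count, 1, became 0 with normexp, in the authors' table, with no trend and at 0.01, 2 with the well-above-background filter and with array weights, 17 with the scan pairs as a block and 23 as a random block. Leaving out 1 array at a time gave 5 to 474 probes, 0 to 2 of the 10 genes, 0 to 13 pathway genes and 2 to 4 of the 5 genes nearest Osmr, of which 3 were shared under 75th percentile scaling and 1 in the authors' table. The replicate numbers of the titles do not pair the samples (correlation of deviations -0.17 to 0.06 for equal numbers), and with the replicate block 1 probe, 0 of the 10 genes and 0 pathway genes passed, with Osmr at 0.59 and an adjusted p of 0.336. In scan pairs the correlation was 0.20 to 0.45. Osm turned to -0.018 under 75th percentile scaling. Nfkbia ran from -0.063 (without control array 4) to 0.23 (without control array 2) on leaving out 1 array, and was -0.014 without irradiated array 3 and -0.011 without irradiated array 1 and with the scan pairs as a block. Among called probes 57.3% were higher, 41.9% under 75th percentile scaling, which moved the median of all probes to -0.075, 49.1% with normexp and 25.0% in the authors' table. The causes were not tested.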
